A study of Striga hermonthica with 6 samples.

Results

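The loci described here were the long loci of *Striga hermonthica*, a root parasite of cereals: regions of 800 nt or more that were not marked as *MIRNA*, on contigs with 6 or more small RNA loci. The rule used length, mark and contig and not counts, although the loci and their edges were themselves called from the reads of these libraries. Of the 25056 loci in the count files, 935 reached 800 nt, and 0 of these were marked as *MIRNA*, the longest *MIRNA* locus being 258 nt. Of the 935, 49 lay on contigs with fewer than 6 loci, which left 886 long loci (3.54% of all loci) on 90 contigs.

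Plants make small RNAs from many places in the genome. *MIRNA* loci are short, because a miRNA is cut from a single hairpin, whereas small interfering RNAs are cut from long double-stranded RNA and can come from stretches of any length, such as transposons, inverted repeats, tandem repeats and genes whose transcripts are copied by an RNA-dependent RNA polymerase. In plants such loci are known for guiding DNA methylation and for silencing transposons and transcripts.

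Small RNA was sequenced in 6 libraries, of which 2 came from haustorium with no stage in the labels (no-stage haustorium, replicates 1 and 3), 2 from haustorium labelled stage 6 (replicates 1 and 2) and 2 from leaf labelled stage 6 (replicates 1 and 2). The haustorium is the organ by which the parasite joins the host root. All plants were of the Kibos ecotype, had KitaakeX rice as the host, and were kept at 30 °C with 16 hours of light a day for 45 days. The sources used here do not define the stage, do not say how the haustorium groups differ, and do not call the replicates separate plants. A p-value here therefore reflects spread among libraries that may be technical. A small RNA count holds no tissue marker, so the tissue labels could not be checked, and in such bulk samples fewer cells of a type and less RNA per cell cannot be told apart. Reads outside the loci were not analysed here, and neither were the sizes, strands or sequences of the reads, so the class of small RNA at a locus was not examined. No genome sequence was used here, and the loci are given by contig and position in the SHERM assembly.

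The counted reads per library ranged from 3031863 (stage 6 haustorium replicate 1) to 8381235 (no-stage haustorium replicate 1). CPM is the count of a locus scaled to the counted reads of its library. Of the libraries, 2 stood apart, stage 6 haustorium replicate 2 and leaf replicate 1, with factors of 1.77 and 1.75 in edgeR's TMM scaling where the remaining 4 had 0.608 to 0.981. Counts of the long loci differed between the libraries of a group by far more than sampling would give (chi-square over its degrees of freedom 399, 570 and 885), so that none was a library deposited again. This does not show that they came from separate plants. Values are given below as replicates 1 and 3 of no-stage haustorium, then replicates 1 and 2 of stage 6 haustorium, then replicates 1 and 2 of leaf.

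The long loci covered 1269884 nt, 10.6% of the length of all loci. Their lengths ran from 800 to 8925 nt with a median of 1056.5 nt and a mean of 1433 ± 889 nt (SD over 886 loci), so that most were close to the lower limit. There were 266 loci of 800 to under 900 nt and 119 of 900 to under 1000 nt, whereas 501 loci reached 1000 nt, 161 reached 2000 nt and 17 were of 4000 nt or more. At the limit of the rule, 4 long loci were of exactly 800 nt and 2 loci that met the rest of the rule were 1 nt too short. Cluster_14049, Cluster_17931 and Cluster_20254, among the shortest members, had 1.03, 0.725 and 0.749 reads per nt when the reads of the 6 libraries were pooled. Just under the limit, Cluster_7700 and Cluster_7704 (1 nt short) had 3.87 and 0.695 reads per nt and Cluster_1152 (2 nt short) had 1.24 reads per nt.

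At the median, the long loci were more densely covered than shorter ones. Pooled over the libraries, they had a median of 2.53 reads per nt, with the middle 50% of loci between 1.31 and 5.26 and a range of 0.324 to 514. As a comparison, mid-length loci were taken, the 7766 loci of the next shorter length class on the same contigs, under 800 nt, with a lower quartile of 433 nt and a median of 461 nt. Their median was 1.095 reads per nt, and it was 0.764 reads per nt over all loci. Single mid-length loci were denser than any long locus, at up to 3814 reads per nt. Above 10 reads per nt there were 255 mid-length and 116 long loci. On the scale of CPM per kb of locus, which takes out length and library size, the medians were 62.0 at long loci, 26.4 at mid-length loci and 18.3 over all loci. These are descriptions with no test, since loci are not replicates. ShortStack joins neighbouring covered stretches of the pooled libraries into a locus, so that length and the number of reads are not independent by construction.

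Among the long loci, coverage was higher at longer ones. The median was 1.28 reads per nt at loci of 800 to 900 nt, 2.74 at 1000 to 1500 nt, 6.24 at 2000 to 3000 nt and 9.08 at 4000 nt or more. Across the 886 loci, Spearman's rho of length was 0.648 with reads per nt and 0.790 with mean CPM. Mean CPM, taken over the 3 group means, ran from 6.44 to 12552 with a median of 71.9, against 12.8 at mid-length loci and 7.86 over all loci. The highest mean CPM of a mid-length locus was 46837. The 55 long loci of 1000 CPM or more held 58.0% of the pooled long-locus reads.

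**Figure D1:**
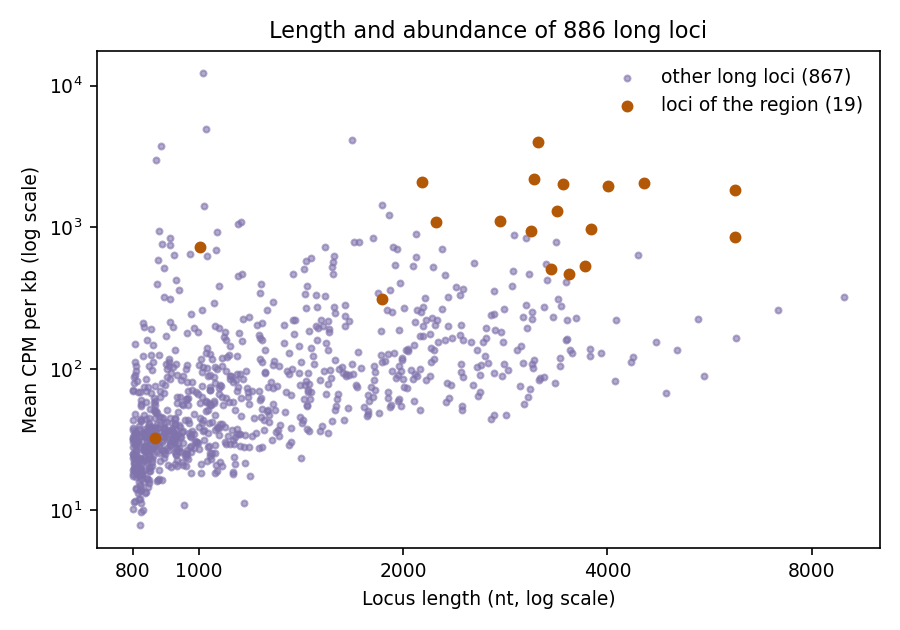
Mean CPM per kb (y axis, log scale) against locus length in nt (x axis, log scale) for the 886 long loci, each a point, with the 19 loci of a region on contig CACSLK010027752.1 in orange and the other 867 in purple. The median length is 1056.5 nt and the median 62.0 CPM per kb, and 17 of the 19 orange points lie at 1863 nt or more.

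Nearly all long loci were found in every library. At least 10 reads in each of the 6 libraries were counted at 844 of the 886 long loci (95.3%), at 61.8% of the mid-length loci and at 40.5% of all loci. A count of 0 in some library occurred at 7 long loci (0.790%), against 17.5% and 28.0% in these comparison sets. A count of 0 allows up to 3 reads, which is 0.358 CPM in the deepest library and 0.989 CPM in the shallowest. Of these 7, Cluster_7808 on contig CACSLK010016925.1 (4629400 to 4630554, inside the protein-coding gene SHERM_01323) had 111 and 0.442 CPM in no-stage haustorium, 94.0 and 0 CPM in stage 6 haustorium and 117 and 0.600 CPM in leaf. Its reads were thus high in no-stage haustorium replicate 1, stage 6 haustorium replicate 1 and leaf replicate 1 and at or near 0 in the other library of each group, which gave it the largest spread of all long loci.

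The long loci held 26.5% and 24.4% of the counted reads in no-stage haustorium, 28.7% and 36.6% in stage 6 haustorium and 35.2% and 25.6% in leaf. Stage 6 haustorium replicate 2 and leaf replicate 1, the libraries that stood apart, were the highest, and the other 4 libraries lay between 24.4% and 28.7%. The group means were 25.4% ± 1.42 in no-stage haustorium, 32.7% ± 5.61 in stage 6 haustorium and 30.4% ± 6.78 in leaf (SD, n = 2 each). The leaf libraries lay on either side of the stage 6 haustorium mean, leaf replicate 2 fell within the range of no-stage haustorium, and no test was made of a sum over chosen loci. The largest half-width of the 95% Wilson intervals of these and the region's shares was 0.0563 percentage points, so that counting error is small beside the spread between libraries. Mid-length loci held 49.8%, 51.9%, 51.3%, 37.8%, 35.0% and 57.6% of the counted reads in the same libraries, and were lowest in the libraries where the long loci were highest. Both are shares of the same total, so a higher share of long loci leaves less for mid-length loci.

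**Figure D2:**
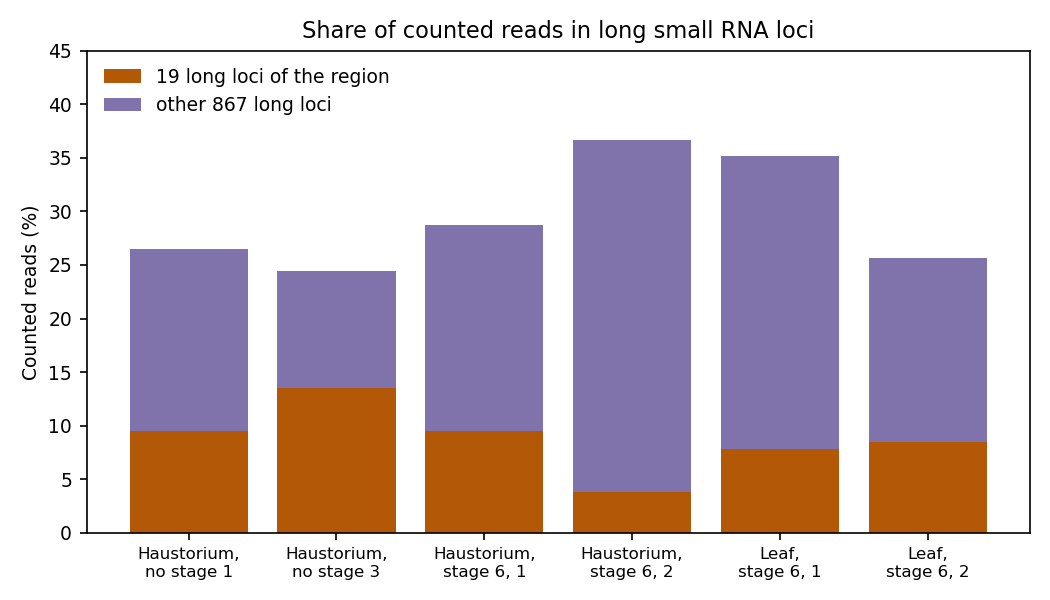
Percent of counted reads (y axis) in long loci for each of the 6 libraries (x axis), with the 19 loci of the region on contig CACSLK010027752.1 in orange and the other 867 long loci in purple. The bars reach 24.4% to 36.6%, and the orange part is smallest (3.78%) in stage 6 haustorium replicate 2, where the purple part is largest (32.9%).

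A small number of loci made up much of this share. The 10 most abundant long loci held 32.8% and 50.9% of the long-locus reads in no-stage haustorium, 26.8% and 14.4% in stage 6 haustorium and 25.5% and 29.2% in leaf. The most abundant loci of a library that together reached a majority of its long-locus reads numbered 9 in no-stage haustorium replicate 3 and 59 in stage 6 haustorium replicate 2. Of the 10 most abundant long loci, 7 lay in a single region.

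This region, chosen after its values were seen, was the largest group of long loci found when loci separated by at most 50000 nt were joined. It spans 201717 nt of contig CACSLK010027752.1, from 6837227 to 7038943, and holds 19 long loci, from Cluster_13884 to Cluster_13913, which cover 30.8% of it. They are 2.14% of the long loci and 4.90% of their length. Their lengths ran from 862 to 6163 nt with a median of 3300 nt, and their pooled coverage from 1.33 to 158 reads per nt with a median of 45.0. The 11 other small RNA loci between them had a median of 0.640 and at most 2.56 reads per nt.

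Annotated genes in the region were short and lay in the long loci. All 17 annotated genes, each marked as protein-coding, from SHERM_23650 to SHERM_23666, overlapped a long locus, 16 of them lay wholly inside, and 14 of the 19 loci held a gene. These genes were 330 to 3526 nt long with a median of 696 nt, against 2219 nt over the 29520 annotated genes. The gene table gives no name or function for them. Whether the loci are copies of each other was not examined without a genome sequence, and where they are, the placing of reads that match several loci would make the counts of single loci uncertain.

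The region held 9.46% and 13.5% of all counted reads in no-stage haustorium, 9.47% and 3.78% in stage 6 haustorium and 7.81% and 8.45% in leaf. Stage 6 haustorium replicate 2 was lowest and no-stage haustorium replicate 3 highest, while the other 4 libraries lay between 7.81% and 9.47%. The stage 6 haustorium libraries differed more from each other than either leaf library did from replicate 1 of either haustorium group. The group means were 11.5% ± 2.85 in no-stage haustorium, 6.63% ± 4.02 in stage 6 haustorium and 8.13% ± 0.450 in leaf (SD, n = 2 each). Of the 19 loci, 14 had their lowest CPM in stage 6 haustorium replicate 2.

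Without the region, the other 867 long loci held 17.0% and 11.0% of the counted reads in no-stage haustorium, 19.2% and 32.9% in stage 6 haustorium and 27.4% and 17.2% in leaf. The means became 13.97% ± 4.27, 26.1% ± 9.63 and 22.3% ± 7.23 (SD, n = 2 each). The mean of no-stage haustorium, the lowest group, was thus 25.4% with the region and 13.97% without it, a change of more than 1.5 times. Leaf replicate 2 and no-stage haustorium replicate 1 remained close to each other, whereas the libraries of every group were further apart than before.

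The single loci of the region did not all follow its sum. Cluster_13900 (6964687 to 6967846, 3160 nt, over SHERM_23659) had the highest mean CPM of all long loci, with 13992 and 22655 CPM in no-stage haustorium, 16423 and 2116 CPM in stage 6 haustorium and 4657 and 15469.5 CPM in leaf. It was several times lower in the libraries that stood apart than in the other 4. Cluster_13908 (7007267 to 7013422, 6156 nt, over SHERM_23666) had 11582 and 19916 CPM in no-stage haustorium, 8491 and 8679.9 CPM in stage 6 haustorium and 6229 and 12539 CPM in leaf. Cluster_13906 (6997385 to 7001907, 4523 nt, over SHERM_23664 and SHERM_23665) had 3675 and 17684 CPM in no-stage haustorium, 6869.7 and 813 CPM in stage 6 haustorium and 24158 and 2594 CPM in leaf. Cluster_13906 was therefore highest in leaf replicate 1 and lowest in stage 6 haustorium replicate 2, and both the haustorium and the leaf values spread over several fold.

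Cluster_13893 (6914384 to 6918393, over SHERM_23655) had 11601 and 14381 CPM in no-stage haustorium, 8061 and 2123 CPM in stage 6 haustorium and 3548 and 7584 CPM in leaf. Cluster_13886 (6857707 to 6861152, over SHERM_23651) had 9942 and 9293 CPM in no-stage haustorium, 6194 and 3915 CPM in stage 6 haustorium and 6530.5 and 5962 CPM in leaf. Both were higher in no-stage haustorium than in the other groups, with no overlap, by their mean CPM of 12991 and 9618 against 5092 and 5055 in stage 6 haustorium, although neither passed the test of edgeR given below. Cluster_13904 (6981019 to 6984133, over SHERM_23661) had 6889.7 and 11473 CPM in no-stage haustorium, 8195 and 2912 CPM in stage 6 haustorium and 4975 and 6341 CPM in leaf, and Cluster_13905 (6987231 to 6993393, over SHERM_23662 and SHERM_23663) had 6282 and 8517 CPM in no-stage haustorium, 5999 and 2440.1 CPM in stage 6 haustorium and 3714 and 4399 CPM in leaf. For Cluster_13904 no-stage haustorium and stage 6 haustorium overlapped, and for both loci stage 6 haustorium replicate 2 was lowest. Cluster_13899 (6930316 to 6933615, over SHERM_23658) was the steadiest of the region, at 1181 to 2362 CPM, and Cluster_13910, the least abundant at 862 nt, ran from 3.24 to 82.2 CPM. Both were picked with their values in view.

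Outside the region, the densest long locus was Cluster_997 (contig CACSLK010001140.1, 2678763 to 2679777, 1015 nt), 472 nt from the gene SHERM_10197, with 514 pooled reads per nt. It had 16533 and 15666 CPM in no-stage haustorium, 9970.1 and 10649 CPM in stage 6 haustorium and 5548 and 15863 CPM in leaf. Leaf replicate 1 was the lowest library, while leaf replicate 2 reached the level of no-stage haustorium. Cluster_16120 (contig CACSLK010027831.1, 14778901 to 14780583, 1683 nt) overlapped SHERM_26476, had 165 reads per nt and gave 4524 and 3499 CPM in no-stage haustorium, 6390.5 and 10711 CPM in stage 6 haustorium and 12206 and 3982 CPM in leaf. Its highest values were in stage 6 haustorium replicate 2 and leaf replicate 1, and leaf replicate 2 was above only no-stage haustorium replicate 3 of the haustorium libraries.

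Some dense loci differed by orders of magnitude between libraries of a group. Cluster_20649 (contig CACSLK010030444.1, 39823 to 40848, 1026 nt), 1661 nt from SHERM_04538, had 214 reads per nt and 1866 and 1277 CPM in no-stage haustorium, 404 and 8437 CPM in stage 6 haustorium and 18369 and 40.6 CPM in leaf. The leaf libraries were the highest and the lowest of the 6. Cluster_10874 (contig CACSLK010024540.1, 1997484 to 1998363, 880 nt, 151 reads per nt) had 1505 and 14.6 CPM in no-stage haustorium, 2507 and 11578 CPM in stage 6 haustorium and 3021 and 1207 CPM in leaf. Here no-stage haustorium replicate 3 alone was low, and the other 5 libraries ran from 1207 to 11578 CPM.

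The longest loci were less dense than these but found in every library. Cluster_18918, the longest at 8925 nt (contig CACSLK010028053.1, 4641485 to 4650409), lay 16322 nt from the nearest gene, SHERM_02549, and had 2222 and 792 CPM in no-stage haustorium, 2630.1 and 5791 CPM in stage 6 haustorium and 2589.9 and 3185 CPM in leaf. Cluster_19819 (contig CACSLK010030184.1, 5446941 to 5454066, 7126 nt) reached into SHERM_03507 and had 1318 and 721 CPM in no-stage haustorium, 1808 and 3129 CPM in stage 6 haustorium and 2581 and 1612 CPM in leaf. Cluster_21599 (contig CACSLK010031421.1, 8030538 to 8036730, 6193 nt), 12317 nt from SHERM_05577, had 796 and 471 CPM in no-stage haustorium, 414 and 2563 CPM in stage 6 haustorium and 598 and 1262 CPM in leaf. In each of these loci stage 6 haustorium replicate 2 was the highest library, and in the first pair of them no-stage haustorium replicate 3 was the lowest.

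The other longest loci outside the region had means of 327 to 1229 CPM. Cluster_6675 (contig CACSLK010014277.1, 4050556 to 4056111, 5556 nt) and Cluster_21289 (contig CACSLK010031421.1, 512475 to 517903, 5429 nt) lay inside the long genes SHERM_16518 and SHERM_05210 and ran from 248 to 787 and from 519.6 to 2195 CPM. Cluster_20889 (contig CACSLK010030875.1, 1269685 to 1274749, 5065 nt), Cluster_9542 (contig CACSLK010020742.1, 7171872 to 7176745, 4874 nt) and Cluster_22265 (contig CACSLK010031655.1, 2116013 to 2120728, 4716 nt) overlapped no gene. All 5 had their lowest CPM in no-stage haustorium replicate 3. Their highest was stage 6 haustorium replicate 2 except for Cluster_6675, highest in leaf replicate 1, and Cluster_20889, highest in stage 6 haustorium replicate 1.

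Long loci lay close together more widely than in that region. The nearest small RNA locus of any kind was a median of 1760.5 nt away, against 4619.5 nt for mid-length loci and 5379 nt over all loci, a comparison with no test in which locus edges depend on how the loci were joined. When long loci separated by at most 10000 nt were joined, 269 of the 886 fell into 113 runs of 2 or more and 617 stood alone. The longest run was part of the region above, with 11 loci from 6964687 to 7038943. The next held 8 loci, from Cluster_24016 to Cluster_24025, on contig CACSLK010034598.1 from 13037941 to 13065092, and covered 21075 of 27152 nt with no annotated gene. This run, chosen after its values were seen, held 0.168% and 0.116% of the counted reads in no-stage haustorium, 0.180% and 0.522% in stage 6 haustorium and 0.316% and 0.216% in leaf. Both leaf libraries lay between the stage 6 haustorium libraries, and both were above no-stage haustorium.

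By contig, CACSLK010027752.1 carried 61 long loci and 32.4% of the pooled long-locus reads, most of them from the region. CACSLK010030184.1 carried 59 and CACSLK010020742.1 and CACSLK010034598.1 carried 52 each, with 3.93%, 2.98% and 5.94% of the reads. On these contigs the long loci were 5.49%, 4.92%, 4.95% and 4.49% of the small RNA loci. This share differed little among them, while the share of the reads differed more. Other contigs lay further apart in the share of loci, such as CACSLK010027831.1 at 1.87% and CACSLK010016925.1 at 7.88%.

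Long loci overlapped annotated genes more often than shorter loci did, by count. An overlap was found at 169 of the 886 long loci (19.1%), at 10.7% of the mid-length loci and at 11.4% of all loci. A longer interval meets a gene more easily, and by nucleotides the difference was smaller, with 13.7% of long-locus sequence inside genes against 8.99% and 10.03%. At 10 long loci 2 or more genes were overlapped. The share went from 15.4% of loci of 800 to 900 nt to 43.5% at 3000 to 4000 nt and 58.8% at 4000 nt or more, where the region on CACSLK010027752.1 supplies several of the loci. Long loci over a gene had a median of 3.84 reads per nt against 2.28 without a gene. Long loci outside genes lay a median of 4324.5 nt from the nearest gene, further than the 2542 nt of mid-length loci.

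By the SD over all libraries, the CPM of a long locus varied less than that of a mid-length locus. Whether this held within groups was not settled. The SD of log2(CPM + 1) was taken over the 6 libraries at each locus. Its median was 0.862 at long loci, with the middle 50% between 0.710 and 1.09, against 1.10 at mid-length loci and 1.19 over all loci. With CPM scaled by the TMM factors the medians were 0.585, 0.832 and 1.02, in the same order. This SD also takes in differences between groups, and low counts raise it. The biological coefficient of variation of edgeR is fitted within groups, allows for counting noise and is drawn towards the values of other loci. Its median was 0.774 at long loci against 0.734 at mid-length loci, the opposite order, and 0.849 over all loci tested. As a fitted value it is not a measured spread, and it does not show which loci varied more within groups.

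At like abundance the median SD over all libraries was lower at long loci in each of the 5 classes of mean CPM, by the most between 100 and 1000 CPM. At a mean of 10 to 30 CPM the median SD was 0.984 at 222 long loci and 1.05 at 4791 mid-length loci, with overlapping middle ranges. At 100 to 300 CPM it was 0.806 at 190 long loci against 2.10 at 127 loci, and at 1000 CPM or more 0.696 at 55 long loci against 1.59 at 70 loci. A far smaller share of the 7766 mid-length loci than of the 886 long loci reached 100 CPM or more, and no test was made of these medians.

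**Figure D3:**
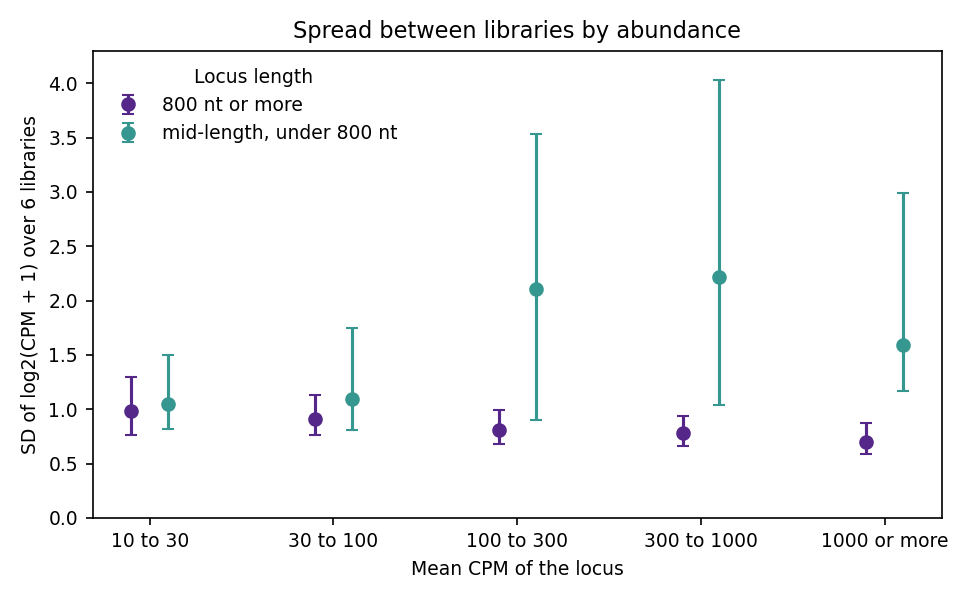
SD of log2(CPM + 1) over the 6 libraries (y axis) by mean CPM of the locus (x axis), for long loci in purple and mid-length loci in green. Points are medians and bars run from the lower to the upper quartile over loci. The purple medians fall from 0.984 to 0.696, while the green medians are 2.10 and 2.21 between 100 and 1000 CPM.

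The order of the long loci by CPM was much alike in all libraries. Spearman's rho between libraries across the 886 loci was 0.817 to 0.861 for the 3 pairs within a group and 0.817 to 0.910 for the 12 pairs between groups. For mid-length loci the medians were 0.306 within groups and 0.324 between groups. The middle 50% of their mean CPM spanned only 9.58 to 18.5, against 29.2 to 236 at long loci. A narrow range and low counts lower rho, and whether they account for the difference was not tested. Libraries of a group were thus no more alike over the long loci than libraries of different groups. These correlations are across loci that share libraries and depth, and are given as a description.

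The highest CPM of a long locus fell mostly in the libraries that stood apart. It fell in stage 6 haustorium replicate 2 at 490 loci (55.3%) and in leaf replicate 1 at 281 (31.7%), and the lowest CPM fell in no-stage haustorium replicate 3 at 559 (63.1%). A like shift was seen over all loci. Their median was 12.2 and 12.8 CPM in the libraries that stood apart, against 3.83 CPM in no-stage haustorium replicate 3 and up to 6.68 CPM in the others. After scaling by the TMM factors the highest value of a long locus fell in leaf replicate 2 at 290 loci and in stage 6 haustorium replicate 1 at 242, and the lowest in no-stage haustorium replicate 3 at 276. The library with the highest value at most loci therefore depended on the scaling. The largest over the smallest CPM of a locus was 5.06-fold at the median and above 10-fold at 172 loci.

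The steadiest and the most variable long loci show the range of this spread. Cluster_12244 (contig CACSLK010026072.1, 4720022 to 4721317, 1296 nt) had the smallest SD, 0.242, with 54.2 and 79.1 CPM in no-stage haustorium, 65.3 and 81.3 CPM in stage 6 haustorium and 65.7 and 55.5 CPM in leaf. Cluster_6028 (contig CACSLK010013932.1, 295085 to 297171, 2087 nt) was steady at a higher level, with 2161 and 1489 CPM in no-stage haustorium, 1433 and 2538 CPM in stage 6 haustorium and 2057 and 1503 CPM in leaf and an SD of 0.346. At both loci the libraries of each group overlapped those of the others. The others of the 5 smallest were Cluster_7621, Cluster_12370 and Cluster_12115, with SDs of 0.289, 0.325 and 0.337 and means of 28.4, 37.7 and 18.8 CPM. The 5 largest SDs, 3.03 to 3.49, were those of Cluster_7808, Cluster_10874, Cluster_20649, Cluster_23064 and Cluster_9503. Cluster_23064 (contig CACSLK010034050.1, 1438498 to 1439368) had 217 and 315 CPM in no-stage haustorium, 1816 and 4.75 CPM in stage 6 haustorium and 24.5 and 700.4 CPM in leaf, so that it was low in both libraries that stood apart.

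Leaf was compared with haustorium, taken as the mean of both haustorium groups, to ask which loci differ between the organs. No long locus passed the test: edgeR's quasi-likelihood test with Benjamini-Hochberg adjustment called 0 of 886 long loci, beside 0% of the 24421 loci tested. The common biological coefficient of variation of the fit was 1.00 with 3 residual degrees of freedom, so that a lack of calls does not show that loci did not differ. At an unadjusted p under 0.05 there were 5 long loci (0.564%), 4 higher and 1 lower in leaf, against 3.26% of all loci tested. DESeq2 called 0 long loci, against 0.830% of the loci with an adjusted p. The median log2 fold change after TMM scaling was 0.19 at the long loci, with the middle 50% between -0.06 and 0.41, and 0.12 over all loci. It was positive at 622 long loci (70.2%), against 56.5% of all loci. The median standard error of a single long locus was 0.69, and the median turned to -0.18 without leaf replicate 2. The leaf, stage 6 haustorium and no-stage libraries enter several of the 3 comparisons, so these share samples.

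Very few long loci separated leaf from haustorium. In CPM, both leaf libraries were above all 4 haustorium libraries at 3 long loci and below at 3, beside 1.53% and 1.97% of all loci tested. With TMM-scaled CPM there were 22 above and 12 below, beside 4.67% and 3.80%. Leaving out a library loosens the criterion for every locus, so each count is set beside the share of all tested loci under the same omission. Without leaf replicate 2 the counts were 282 and 17, beside 38.7% and 6.01% of all loci. Without leaf replicate 1 they were 16 and 102 of 886, beside 978 and 5092 of the 24421 loci. Omitting stage 6 haustorium replicate 2 gave 141 above (15.9%) and 10 below, beside 10.6% and 4.82%. Omitting its replicate 1 gave 13 and 7, beside 2.60% and 3.70%, and omitting replicate 1 or 3 of no-stage haustorium gave 3 and 6 or 4 and 16, beside 2.66% and 2.60% or 2.28% and 4.62%. The share of long loci was thus below that of all loci in both directions under each omission, except for those higher in leaf without stage 6 haustorium replicate 2. Of the 3 above, Cluster_6037 (contig CACSLK010013932.1, 358339 to 359282) had 42.0 and 16.2 CPM in no-stage haustorium, 42.9 and 63.3 CPM in stage 6 haustorium and 72.8 and 80.9 CPM in leaf, a log2 fold change of 1.10 ± 0.68 (SE) and an adjusted p of 0.999979 in edgeR. For Cluster_6490 (contig CACSLK010014277.1, 1108480 to 1109297) the fold change was 0.75 ± 0.60 and for Cluster_6605 (same contig, 2848491 to 2849900) it was 0.35 ± 0.70 (SE). The margin was small for both, since leaf replicate 2 was at 11.8 CPM against at most 11.6 CPM in haustorium at Cluster_6490, and at 109.6 against 108 CPM at Cluster_6605.

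Of the 3 below, Cluster_21414 (contig CACSLK010031421.1, 2733714 to 2734602, 889 nt) had 21.0 and 26.4 CPM in no-stage haustorium, 16.8 and 60.8 CPM in stage 6 haustorium and 8.57 and 4.56 CPM in leaf, and its log2 fold change was -2.31 ± 0.68 (SE), with an adjusted p of 0.999979 in edgeR. This was the largest fitted difference among the 6 long loci whose libraries did not overlap. When any single library was left out, it ran from -2.60 to -2.02. Libraries that do not overlap in CPM still do not overlap after such an omission, so the kept direction is no support for the difference. Cluster_7832, over SHERM_01350 on contig CACSLK010016925.1 (5081850 to 5083263), had a fold change of -0.91 ± 0.83 and Cluster_24264 on contig CACSLK010034598.1 (17140391 to 17141810) of -0.64 ± 0.72 (SE).

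**Figure D4:**
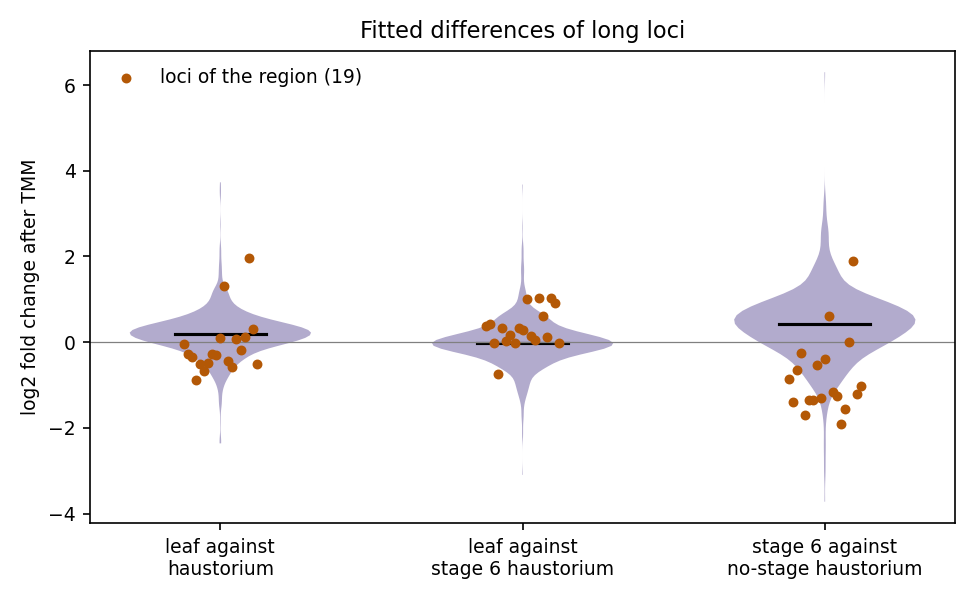
Fitted log2 fold change after TMM scaling (y axis) in the 3 comparisons (x axis) for the 867 long loci outside the region, drawn as purple densities with a black line at the median, and for the 19 loci of the region as orange points. The medians of the densities are 0.19, -0.02 and 0.42, and in stage 6 against no-stage haustorium 17 of the 19 orange points lie below 0.

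Leaf against stage 6 haustorium compares the organs at the same labelled stage. The test of edgeR called 0 of 886 long loci, beside 0% of all loci tested, and 1 long locus, lower in leaf, had an unadjusted p under 0.05, against 2.00% of all loci. DESeq2 called 0, against 0.472%. The median log2 fold change of the long loci was -0.01, with the middle 50% between -0.23 and 0.23, and 421 (47.5%) were positive. Over all loci the median was 0.05. The sign of the median turned with single libraries, to 0.19 without leaf replicate 1 and to 0.13 when stage 6 haustorium replicate 1 was left out, and it was -0.41 without leaf replicate 2.

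In CPM, both leaf libraries were above both stage 6 haustorium libraries at 7 long loci and below at 62, beside 4.59% and 8.56% of all loci tested. With TMM-scaled CPM the counts were 49 and 64, beside 12.2% and 11.7%. In CPM, the counts were higher when a library was left out, which also loosens the criterion for all loci. They were 48 (5.42%) and 525 (59.3%) without stage 6 haustorium replicate 1, beside 11.3% and 44.7% of all loci, and 25 (2.82%) and 513 (57.9%) when leaf replicate 1 was left out, beside 9.42% and 47.8%. They were 304 (34.3%) and 106 without stage 6 haustorium replicate 2, beside 35.9% and 15.7%, and 299 (33.7%) and 90 (10.2%) without leaf replicate 2, beside 43.4% and 13.6%. The long loci exceeded all loci in the share lower in leaf when replicate 1 of stage 6 haustorium or of leaf was left out, and were below all loci in the rest. Cluster_21563 (contig CACSLK010031421.1, 4962545 to 4963387) had 48.9 and 25.6 CPM in no-stage haustorium, 15.8 and 15.1 CPM in stage 6 haustorium and 71.2 and 20.6 CPM in leaf and a log2 fold change of 1.41 ± 0.71 (SE). Higher in leaf at 1.19 ± 0.98 was Cluster_23849 (contig CACSLK010034598.1, 5969487 to 5970550), whose no-stage haustorium libraries were as high as leaf, with 118 and 143 CPM in no-stage haustorium, 67.6 and 67.9 CPM in stage 6 haustorium and 98.3 and 140.0 CPM in leaf. Below were Cluster_21414 again, at -2.19 ± 0.73 (SE), Cluster_12834 (contig CACSLK010027624.1, 4505943 to 4506762) at -2.06 ± 1.54 and Cluster_9979 (contig CACSLK010020742.1, 18777533 to 18778534) at -1.79 ± 0.84. The leaf libraries of Cluster_12834 were far apart, at 18.4 and 0.120 CPM, and its value was -6.81 without replicate 1 and -1.12 without replicate 2.

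Stage 6 haustorium against no-stage haustorium was the comparison in which the long loci as a list lay furthest from 0. In CPM, both stage 6 libraries were above both others at 439 long loci (49.5%) and below at 17 (1.92%), beside 26.0% and 8.85% of all loci tested. With TMM-scaled CPM these were 311 and 57, beside 18.1% and 16.9%, so that the excess of higher loci was smaller but stayed. Without no-stage haustorium replicate 1 the counts were 701 (79.1%) and 37 (4.18%), beside 51.8% and 14.6% of all loci under this looser criterion, and without its replicate 3 they were 462 (52.1%) and 68 (7.67%), beside 32.0% and 21.4%. Without stage 6 haustorium replicate 1 they were 764 (86.2%) and 44 (4.97%), beside 67.1% and 15.5%, and without its replicate 2 they were 473 (53.4%) and 134 (15.1%), beside 31.7% and 31.8%. Under each omission the share of higher loci was above that of all loci and the share of lower loci below it. The median log2 fold change was 0.41, with the middle 50% between -0.07 and 0.81, against 0.02 over all loci, and 637 long loci (71.9%) were positive, against 50.6%. With library totals in place of TMM the medians were 1.06 and 0.74, a shift of all loci by more than 0.1, and relative to all loci the long loci were higher on both scales.

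No single long locus passed the test in this comparison either. The test of edgeR called 0 of 886, beside 0% of all loci tested, and 13 long loci (1.47%), 12 higher and 1 lower at stage 6, had an unadjusted p under 0.05, against 4.39% of all loci. DESeq2 called 1, Cluster_9503, against 1.56% of the loci with an adjusted p. Cluster_9503 (contig CACSLK010020742.1, 6630645 to 6631904, 1260 nt), 4119 nt from SHERM_18895, had 0.358 and 0.736 CPM in no-stage haustorium, 93.7 and 18.4 CPM in stage 6 haustorium and 255 and 8.76 CPM in leaf. In reads, it had 3 and 5 in no-stage haustorium, 284 and 128 in stage 6 haustorium and 1877 and 73 in leaf. Its log2 fold change was 6.30 ± 1.97 (SE) with an adjusted p of 0.999553 in edgeR, and 6.26 with an adjusted p of 0.0208 in DESeq2. The other alternatives gave adjusted p-values of 0.679 to 1 for it, and the lowest fold change, 3.75, was that without stage 6 haustorium replicate 1.

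Cluster_12167 (contig CACSLK010026072.1, 2476739 to 2478901, 2163 nt), 1614 nt from SHERM_21978, was also low in both libraries of no-stage haustorium and higher in the other 4, with 12.2 and 27.5 CPM in no-stage haustorium, 437 and 116 CPM in stage 6 haustorium and 385 and 111 CPM in leaf and a log2 fold change of 3.35 ± 1.33 (SE). Cluster_21420 (contig CACSLK010031421.1, 2767850 to 2769206), 248 nt from SHERM_05371, had 15.5 and 10.5 CPM in no-stage haustorium, 17.8 and 543 CPM in stage 6 haustorium and 26.3 and 446 CPM in leaf. Its fold change of 3.31 ± 2.02 (SE) rested on stage 6 haustorium replicate 2, since replicate 1 was barely above no-stage haustorium, and was 0.37 without that library. Among the loci below, Cluster_5800 (contig CACSLK010012531.1, 5057406 to 5058441) had 209.5 and 15.2 CPM in no-stage haustorium, 11.5 and 7.77 CPM in stage 6 haustorium and 10.8 and 4.68 CPM in leaf and -3.72 ± 1.30 (SE), in which no-stage haustorium replicate 1 alone was high, and -1.45 without that library. Cluster_20185 (contig CACSLK010030184.1, 12406917 to 12407840) had 153 and 147 CPM in no-stage haustorium, 10.6 and 57.5 CPM in stage 6 haustorium and 8.30 and 373 CPM in leaf and -3.14 ± 1.96 (SE), and Cluster_21073 (contig CACSLK010030875.1, 3806334 to 3807134) was at -2.51 ± 1.05 (SE). For Cluster_20185 the leaf libraries lay on either side of all haustorium libraries.

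The region on CACSLK010027752.1 lay below the remaining long loci in this comparison. Its 19 loci had a median log2 fold change of -1.17 with 2 positive, against 0.42 with 635 positive among the other 867. In CPM, 26.0% of all loci tested were above and 8.85% below at stage 6. Of the region's 19 loci, 2 were above and 7 below, against 437 above and 10 below among the other 867. These values depended on single libraries: without stage 6 haustorium replicate 2, the lowest for the region, the region's median was -0.39 with 6 positive, against 0.43 among the other long loci and -0.28 over all loci. Without no-stage haustorium replicate 3, the highest library for the region, it was -0.41, and without stage 6 haustorium replicate 1 it was -2.89. The region's median was below that of the other long loci in all 14 alternative fits that were run, but its sign was not fixed. It was above 0 in 1 of them, at 0.24 with 12 positive, in which crossed replicate numbers were taken as a block. That block fits no-stage haustorium replicate 3 by itself, so the library highest for the region did not enter this value. In leaf against haustorium the region's median was -0.28 with 6 positive, but 0.59 when stage 6 haustorium replicate 1 was left out. Leaving out leaf replicate 1 gave 0.23, and leaving out leaf replicate 2 gave -1.17. In leaf against stage 6 haustorium it was 0.29 with 15 positive, but -0.49 when stage 6 haustorium replicate 2 was left out and -1.01 when leaf replicate 2 was. These are descriptions of a region picked with its values in view, with no test.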

How the data were processed

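Small RNA of haustorium and leaf was sequenced in 6 libraries. After trimming, the authors annotated loci *de novo* with ShortStack 4.0.4 at its defaults on the SHERM assembly, and deposited a raw count table per library with the position of each locus and a *MIRNA* mark. Counts were used as deposited.

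Length was end minus start plus 1. CPM used all counted reads of a library (3031863 to 8381235). Intervals cover counting error only, as PCR duplicates could not be told from separate molecules. The groups entered a quasi-likelihood test in edgeR 4.0.16 under R 4.3.3 (TMM, filterByExpr, Benjamini-Hochberg over 24421 loci, threshold 0.05, 3 groups). DESeq2 1.42.0, other scalings and filters, a replicate block and leaving out libraries were alternatives. Replicate numbers shared by stage 6 haustorium and leaf were not taken as pairs in the main fit. Gene positions came from a table of the same assembly. Tables and plots were made with matplotlib 3.10.9, scipy 1.17.1, numpy 2.4.6 and pandas 2.3.3 in Python 3.11.15.

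The members and lists were chosen with earlier results of these data known. Named loci were the 10 longest, the 10 most abundant, the 5 densest, the 5 with the largest and the 5 with the smallest SD at 10 CPM or more, the 3 on each side of the length limit, and, per comparison, the 3 highest and 3 lowest fitted changes among loci whose libraries did not overlap.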

Additional observations from a re-analysis of the deposited data

Results flagged for a closer look

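In 3 of the 47 sets of 4 haustorium libraries that were looked at, 1 library lay far from the other 3 by Dixon's ratio of gap to range above its 95% critical value. Many of the loci were named for their values in these libraries, and all sets share the same libraries. The count can therefore not be set against the 1 in 20 that chance would give in independent sets. The haustorium groups were pooled for this purpose. At Cluster_14049, the ratio was 0.919, with 59.7 CPM in stage 6 haustorium replicate 2 against 7.28, 8.10 and 11.5 CPM in the other haustorium libraries. At Cluster_21420, the ratio was 0.986, with 543 CPM in stage 6 haustorium replicate 2 against 10.5 to 17.8 CPM. At Cluster_5800, it was 0.963, with 209.5 CPM in no-stage haustorium replicate 1 against 7.77 to 15.2 CPM. The cause of these values was not tested.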

How the results depend on the processing

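Counts of edgeR calls stayed at 0 in every comparison and alternative of edgeR that was run. In the order leaf against haustorium, leaf against stage 6 haustorium and stage 6 against no-stage, DESeq2 called 204, 116 and 383 of all loci, and 1 long locus in the last (Cluster_9503, adjusted p 0.0208). Without TMM the median log2 fold change of long loci at stage 6 was 1.06.

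The mean share of long loci in no-stage haustorium was 23.6% with a limit of 1000 nt, 31.2% over all contigs, 32.1% without the 10 most abundant other loci and 23.6% without the most abundant long locus. Without the region of 19 loci it was 13.97%, and 26.1% and 22.3% in stage 6 haustorium and leaf. Alternatives without the region, and those without both libraries that stood apart, were chosen after seeing the data, as were all those of loci whose libraries did not overlap. With TMM-scaled CPM the latter counts were 22 higher and 12 lower in leaf than in haustorium, beside 4.67% and 3.80% of all loci tested. They were 49 and 64 in leaf against stage 6 haustorium, beside 12.2% and 11.7%. At stage 6 they were 311 (35.1%) higher and 57 (6.43%) lower, beside 18.1% and 16.9%. Without both libraries that stood apart they were 183 (20.7%) and 113 (12.8%) in leaf against haustorium, beside 14.9% and 24.5% of all loci tested. They were 336 (37.9%) and 550 (62.1%) in leaf against stage 6 haustorium, beside 42.5% and 55.6%. There 1 library a group makes a lack of overlap nearly automatic. At stage 6 they were 473 (53.4%) higher and 134 (15.1%) lower, beside 31.7% and 31.8%.

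When each library was left out in turn, the medians ran from -0.18 to 0.38 in leaf against haustorium, from -0.41 to 0.19 in leaf against stage 6 haustorium and from 0.26 to 0.55 at stage 6. Counts without overlap ran from 3 to 282 and 6 to 102, from 25 to 304 and 90 to 525, and from 462 to 764 and 37 to 134, partly because fewer libraries overlap less. Over all loci tested the shares under the same omissions ran from 2.28% to 38.7% and 2.60% to 20.9%, from 9.42% to 43.4% and 13.6% to 47.8%, and from 31.7% to 67.1% and 14.6% to 31.8%. The shares ran from 24.4% to 26.5%, 28.7% to 36.6% and 25.6% to 35.2%. Cluster_6605 ran from -0.15 to 0.72 and Cluster_23849 from -0.088 to 1.85, and Cluster_24264 was at 0.011 without both libraries that stood apart. Of the other values of named loci, 228 kept their direction and side of the threshold. These loci were chosen for libraries that did not overlap, which favours a kept direction.

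With the replicate number as a block, edgeR called 0 loci in every comparison, and the medians of the long loci were 0.11, -0.03 and 0.22. Number 3 occurs only in no-stage haustorium, so the block fits that library by itself and it adds nothing to the comparisons. The block also leaves fewer residual degrees of freedom than the 3 of the main fit. The lack of calls under the block therefore carries little weight. Deviations of same-numbered stage 6 haustorium and leaf libraries correlated at -0.14 over all tested loci and 0.054 over long loci. Each value rests on a single difference per group, so it cannot show whether the numbers pair the libraries. The median of the region of 19 loci at stage 6 was -0.23 with 7 positive under the block. The crossed pairing, added after seeing the data, has the same limits and also gave 0 calls. Where the cause of a change is not in how an alternative was built, the cause was not tested. Depth limits loci near 0.358 to 0.989 CPM, the level of 3 reads.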
